A study of Mus musculus with 12 samples.

Results

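The myelin structural genes described here are *Mbp*, *Cnp*, *Mobp*, *Mag*, *Mog*, *Opalin*, *Cldn11*, *Mal* and *Ugt8a*, which are 9 of the 55471 genes in a table of read counts. They were chosen by gene symbol, as genes of the sheath that mature oligodendrocytes form. Myelin is a stack of membrane that oligodendrocytes wrap around axons of the brain and spinal cord, where it insulates the axon and speeds conduction. Small basic proteins hold the cytoplasmic faces of the stack together, adhesion proteins and a tight junction protein keep the layers in place and in contact with the axon, and galactolipids make up much of the membrane. Oligodendrocyte precursors carry little of this transcript set, which is switched on late, when the cells differentiate.

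The cultures were primary hippocampal neurons from wild-type CD1 mouse embryos of both sexes, kept in Neurobasal medium. One group received a control gapmer with no known target, and the other a gapmer against the long noncoding RNA *Neuid*, called *Neuid* KD. Gapmers are antisense oligonucleotides that recruit RNase H to cut the RNA they bind, and here they were delivered in lipid nanoparticles. Both groups were treated at DIV 7 (days in vitro) and collected at DIV 10, with 6 libraries of total RNA in each group. The labels do not say whether the 6 libraries of a group came from separate cultures, so that p-values measure the spread between libraries, which may be technical. Counted reads numbered 18002585 to 30914714 in control libraries and 11152556 to 30573480 in *Neuid* KD libraries. Values below are CPM, counts scaled to the size of the library after TMM normalization.

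*Neuid* (Gm10419, chr5:108367769-108378239 of GRCm38, plus strand) had 503 to 895 reads in the control libraries and 88 to 273 in *Neuid* KD. The means were 28.4 ± 2.03 and 8.05 ± 1.13 CPM (SD, n = 6 each). Every control library had at least 26.0 CPM and every *Neuid* KD library at most 9.55 CPM, so that there was no overlap (exact permutation test on both sides, p = 0.00216, the lowest value it can take with 6 libraries each). Gm42517 lies across it on the other strand. The neuronal label fitted the marker genes: the summed level of 10 neuron markers was 6826 ± 414 CPM in control against 6892 ± 439 CPM in *Neuid* KD (SD, n = 6 each). *Map2*, which encodes a dendritic microtubule protein, was the most abundant of them at 2625 ± 180 and 2607 ± 255 CPM (SD, n = 6 each). *Stmn2*, a regulator of axonal microtubules, was at 991 ± 51.4 and 941 ± 51.9 CPM (SD, n = 6 each). None of the 10 neuron markers was called in either direction by edgeR or DESeq2, and 1 was higher at an unadjusted p under 0.05. The 9 myelin genes together were at 26.4 ± 3.21 CPM in control against 24.4 ± 4.41 CPM in *Neuid* KD (SD, n = 6 each), with *Cnp* holding 57.8% of the sum.

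The libraries differed in background, and this sets which myelin genes can be read. Background was measured on 1796 chemosensory receptor genes (olfactory, vomeronasal, taste and trace amine receptors), which are silent in brain cultures. Their summed level was 26.1, 297 and 655 CPM in the lowest, median and highest control library and 26.9, 177 and 607 CPM in *Neuid* KD. It was at least 100 CPM in 7 libraries, control replicates 1, 2, 4 and 6 and *Neuid* KD replicates 1, 5 and 6. It was under 100 CPM in the other 5, control replicates 3 and 5 and *Neuid* KD replicates 2, 3 and 4. The mean was 435 CPM in the 7 libraries and 40.4 CPM in the 5, a ratio of 10.8. For each library, the reads per kb of exon on these silent genes, multiplied by the exon length of a myelin gene, gave the reads that background alone would place on it.

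Over the 12 libraries, *Cnp* had 97.2 times and *Mbp* 18.9 times the reads expected from background, and none of the 1796 silent genes had as many reads per kb as either. Both genes stayed at one level as the background changed. The mean of the 7 libraries over that of the 5 was 0.931 for *Cnp* and 1.12 for *Mbp*. *Ugt8a* had 3.32 times the expected reads, with a ratio of 1.67 between the 7 and the 5 libraries. *Mobp*, *Mag* and *Mog* moved with the background: their means in the 7 libraries were 12.8, 13.9 and 34.4 times those in the 5, beside 10.8 for the silent genes. The ratio of *Mog* rests on 1 read in the 5 libraries. The reads of these 3 genes were 4.37, 2.42 and 1.52 times the expected number, and 0.724%, 6.40% and 16.5% of single silent genes had at least as many reads per kb. *Mal*, *Opalin* and *Cldn11* had ratios of 4.39, 3.96 and 3.79 over both groups. In control alone, *Mal* was at 1.19 CPM in the high and 0.0194 CPM in the low background libraries, and in *Neuid* KD at 1.57 and 0.541 CPM. *Cldn11* was at 0.243 and 0 CPM in control and at 0.451 and 0.145 CPM in *Neuid* KD. *Mal*, *Opalin* and *Cldn11* had 7.48, 1.70 and 2.73 times the expected reads. A second set of silent genes, 139 genes of skin and defence, put the background higher. By it the reads were 64.5 (*Cnp*), 12.5 (*Mbp*), 4.96 (*Mal*), 2.90 (*Mobp*), 1.81 (*Cldn11*), 1.13 (*Opalin*) and 1.01 (*Mog*) times the expected number, so that *Mog* and *Opalin* were about at background. *Ugt8a* had 88 reads in control and 80 in *Neuid* KD where this set gives 46.7 and 29.7, and *Mag* had 77 and 33 where it gives 41.9 and 26.6. Why libraries differ in background was not tested.

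**Figure D1:**
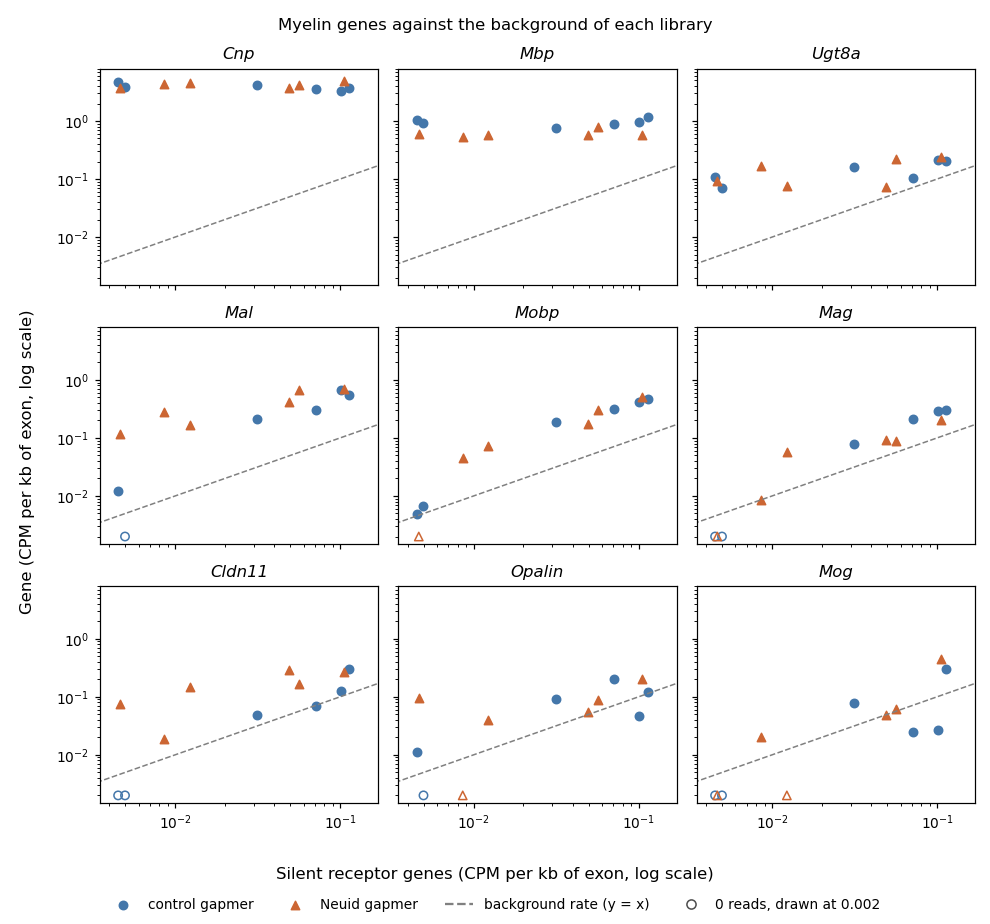
Level of each myelin gene against the level of the silent receptor genes in the same library, both in CPM per kb of exon on log scales. Circles are the 6 control libraries, triangles the 6 *Neuid* KD libraries, the dashed line is the background rate, and open symbols at 0.002 stand for 0 reads. *Cnp* and *Mbp* lie far above the line at every background, while *Mobp*, *Mag* and *Mog* slope with it.

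Across the whole table, 19578 genes passed the filter on low counts and were tested with edgeR. A gene was called when its adjusted p was under 0.05 and its log2 fold change beyond 0.5 in size, and 477 were called higher in *Neuid* KD (2.44% of those tested) and 155 lower (0.792%). With the silent gene level as a covariate the numbers were 562 and 300, and with upper quartile scaling 389 and 218. Leaving out *Neuid* KD replicate 1, the shallowest library, gave 426 and 269. Of the 9 myelin genes 5 were tested, and the filter removed *Mag*, *Mog*, *Opalin* and *Cldn11*, which get values and no fold change. *Mbp* was called lower. Over all 12 libraries with group alone in the model, none was called higher by edgeR, none of the tested genes was higher at an unadjusted p under 0.05, and DESeq2, which gave an adjusted p for 3 of the 9, called none higher either. Other edgeR settings called *Mal* higher, as given below. In CPM, 0 of the 9 had groups that did not overlap, as against 5.7% of all tested genes.

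*Mbp* (ENSMUSG00000041607, chr18:82475146-82585637, plus strand) encodes myelin basic protein, which binds the cytoplasmic faces of the membrane and compacts the sheath. The counts were 144 to 263 reads in control libraries and 57 to 129 reads in *Neuid* KD libraries. The level was 6.51, 7.97 and 9.81 CPM in the lowest, median and highest control library and 4.51, 4.82 and 6.75 CPM in *Neuid* KD. Of the *Neuid* KD libraries, 5 lay below every control library, and replicate 6 at 6.75 CPM lay above control replicate 6 at 6.51 CPM, so that the groups overlapped. The log2 fold change of -0.66 had a standard error of 0.12 (quasi-likelihood test of edgeR, adjusted p = 0.000973). After the expected background was taken off, *Mbp* fell from 7.65 ± 1.00 to 4.81 ± 0.820 CPM (SD, n = 6 each, two-sided exact permutation test, p = 0.00433), which left 62.8% of the control level. The exact permutation p was 0.0857 within the 7 libraries of high background, 0.100 within the 5 of low background, the smallest value possible there, and 0.0625 with libraries paired by replicate number. Fewer cells that express *Mbp* and less *Mbp* RNA per cell cannot be told apart in these bulk libraries.

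The call of *Mbp* held in the 5 libraries with low background and not in the 7 with high background. In the 5, the log2 fold change was -0.81 (edgeR adjusted p = 0.000741), with 8.77 and 7.73 CPM in control replicates 3 and 5 and 4.85, 5.15 and 4.51 CPM in *Neuid* KD replicates 2, 3 and 4. In the 7 it was -0.54 (edgeR adjusted p = 0.0551). The standard error was 0.16 in both fits, and whether the effect differs between the 7 and the 5 libraries was not tested. The edgeR and DESeq2 adjusted p lay between 3.23e-05 and 0.0551 over 22 alternative settings. The annotation holds 16 transcripts of *Mbp*, among them the longer golli forms, which are also known outside oligodendrocytes. Counts were per gene, so the forms were not separated.

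*Cnp* (ENSMUSG00000006782, chr11:100574904-100591729, plus strand) encodes a phosphodiesterase of the non-compact parts of the sheath and the cytoplasmic channels through it. It was the most abundant of the 9 per kb, with 262 to 506 reads in control and 210 to 448 reads in *Neuid* KD. The level was 12.2, 13.8 and 16.9 CPM in the lowest, median and highest control library and 13.3, 15.3 and 17.7 CPM in *Neuid* KD. The groups overlapped over most of their range. The log2 fold change was 0.10 (standard error 0.09, edgeR adjusted p = 0.636), and it was -0.05 within the 5 libraries of low background. Exons of *Cnp* overlap *Dnajc7* on the opposite strand. The library kit keeps the strand, but whether the counting used it is not given in the sources used here.

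*Mobp* (ENSMUSG00000032517, chr9:120149707-120181484, plus strand) encodes another small basic protein of compact myelin. Its reads followed the background of the library. Control replicates 1, 2, 4 and 6 had 61, 50, 61 and 28 reads, and replicates 3 and 5 had 1 read each. *Neuid* KD replicates 1, 5 and 6 had 42, 29 and 39 reads, and replicates 2, 3 and 4 had 13, 0 and 9. In the 3 libraries with the least background, control replicates 3 and 5 and *Neuid* KD replicate 3, the expected background was 0.927, 0.736 and 0.681 reads, so that *Mobp* was not detectable above it. *Neuid* KD replicates 2 and 4, with more background, had more reads than the 2.17 and 1.68 expected. The log2 fold change was -0.35 (standard error 0.91, edgeR adjusted p = 0.902), and 0.22 with the silent gene level as a covariate (edgeR adjusted p = 0.756, between 0.559 and 0.999 over the alternatives). *Mobp* shares exon sequence with Gm38642 on the same strand.

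*Mag* (ENSMUSG00000036634, chr7:30899176-30914873, minus strand) encodes the adhesion protein of the innermost layer that faces the axon and is a ligand for receptors that stop neurite growth. Its counts were 24, 20, 26 and 7 reads in control replicates 1, 2, 4 and 6 and 0 reads in replicates 3 and 5, which allows up to 0.100 and 0.139 CPM there. These limits and the intervals below cover counting error only. In *Neuid* KD the 6 libraries had 10, 6, 0, 1, 9 and 7 reads in the order of their replicate numbers. The level above background was 0.381 ± 0.379 CPM in control against 0.147 ± 0.156 CPM in *Neuid* KD (SD, n = 6 each, two-sided exact permutation test, p = 0.195). The sign of this difference turned within the 5 libraries of low background, where the mean was -0.0193 CPM in control against 0.0546 CPM in *Neuid* KD.

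*Mog* (ENSMUSG00000076439, chr17:37010743-37023398, minus strand) encodes an immunoglobulin-like protein of the outermost layer and is a classical target of demyelinating autoimmunity. There were 15 reads in all 6 control libraries and 14 in all 6 *Neuid* KD libraries, where background alone would give 11.9 and 7.14, or 17.5 and 11.1 by the second silent set. Replicate 1 of each group held most of them, with 10 and 9 reads. *Opalin* (ENSMUSG00000050121, chr19:41061710-41077113, minus strand) encodes a membrane glycoprotein of the paranodal loops of central myelin. It had 31 reads in control and 25 in *Neuid* KD, against 20.6 and 12.4 expected from background, or 30.3 and 19.3 by the second silent set. *Neuid* KD replicate 3, one of the libraries with the least background, had 6 reads where 0.293 were expected. The levels above background differed by less than the spread between libraries for *Mog* (0.0308 ± 0.160 and 0.0961 ± 0.237 CPM, SD, n = 6 each, exact permutation test, p = 0.576). For *Opalin* they were 0.0736 ± 0.188 and 0.119 ± 0.127 CPM (SD, n = 6 each, exact permutation test, p = 0.632).

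*Cldn11* (ENSMUSG00000037625, chr3:31149920-31164324, plus strand) encodes the claudin that forms the tight junctions between myelin layers. The control libraries had 11, 3, 0, 5, 0 and 2 reads and the *Neuid* KD libraries 6, 7, 3, 1, 13 and 6, each in the order of replicate numbers. Its level above background was 0.0680 ± 0.143 CPM in control against 0.226 ± 0.145 CPM in *Neuid* KD (SD, n = 6 each, two-sided exact permutation test, p = 0.0931). The groups overlapped. Without control replicate 1 the exact permutation p was 0.0130, and without *Neuid* KD replicate 4 it was 0.0433. With each of the other 10 libraries left out it lay between 0.0844 and 0.177, and it was 0.277 with no background taken off and 0.125 with libraries paired by replicate number. The exact permutation p with the second silent set was 0.0541. Among the 5 libraries of low background, the 2 control libraries had 0 reads and the 3 *Neuid* KD libraries 11, where background alone would give 0.454 and 1.24.

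*Mal* (ENSMUSG00000027375, chr2:127633226-127656695, minus strand) encodes a small membrane-spanning protein of lipid rafts that takes part in sorting proteins to the myelin membrane. In all 12 libraries the groups overlapped: 0, 0.721 and 1.86 CPM in the lowest, median and highest control library and 0.328, 0.959 and 1.94 CPM in *Neuid* KD. The log2 fold change was 0.41 (standard error 0.79, edgeR adjusted p = 0.870), between 0.12 and 0.84 with each library left out. The control values split with the background. Control replicates 1, 2, 4 and 6 had 30, 20, 40 and 13 reads, while replicates 3 and 5 had 1 and 0 reads, where background alone would give 0.376 and 0.298. In *Neuid* KD, replicates 2, 3 and 4 had 12, 7 and 22 reads against 0.880, 0.276 and 0.682 expected. Their levels, 0.466, 0.328 and 0.769 CPM, also lay below the 1.94, 1.15 and 1.88 CPM of replicates 1, 5 and 6.

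In the 5 libraries of low background, *Mal* had 27.9 times the CPM in *Neuid* KD as in control (exact 95% interval 4.74 to 1130, from 41 reads against 1). *Neuid* KD replicates 2 and 4 had more background than the 2 control libraries. *Neuid* KD replicate 3, whose background was close to theirs, had 16.9 times the CPM (exact 95% interval 2.17 to 762, from 7 reads against 1). Above background, the exact permutation p within the 5 was 0.100, the smallest possible there. The edgeR fit within these 5 called *Mal* higher (log2 fold change 4.44, adjusted p = 0.00762), a size that depends on the prior count because control is near 0. With 1 and 0 reads in control, *Mal* passed the low-count filter there only through its *Neuid* KD reads, so no conclusion is drawn from that call. In the 7 libraries of high background the log2 fold change was 0.46 (edgeR adjusted p = 0.898). With the silent gene level as a covariate over all 12 libraries it was 1.10 (edgeR adjusted p = 0.0378), and with a factor of unwanted variation it was 1.16 (edgeR adjusted p = 0.0268). Both fits include the control libraries with 1 and 0 reads, so they are not separate from the fit within the 5. The level above background, 0.662 ± 0.641 CPM in control against 0.979 ± 0.600 CPM in *Neuid* KD, differed by less than the spread (SD, n = 6 each, two-sided exact permutation test, p = 0.387). The edgeR adjusted p lay between 0.00762 and 0.971 over the alternatives, and whether the effect differs between the 7 and the 5 libraries was not tested.

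*Ugt8a* (ENSMUSG00000032854, chr3:125865271-125938619, minus strand) encodes the enzyme that joins galactose to ceramide, the key step in making galactolipids of the sheath. It was low, and clearest above background where the background was low. Control replicates 3 and 5 had 15 and 7 reads where 0.614 and 0.487 were expected, and *Neuid* KD replicates 2, 3 and 4 had 9, 9 and 22 where 1.44, 0.451 and 1.11 were expected. Where background was high it was close to it in control replicate 2, with 11 reads and 7.58 expected, and in *Neuid* KD replicate 5, with 8 reads and 5.44 expected. The second silent set put the expected reads there at 10.4 and 8.31. The level was 0.324, 0.612 and 0.974 CPM in the lowest, median and highest control library and 0.328, 0.595 and 1.09 CPM in *Neuid* KD. The groups overlapped over almost all of their range, and the log2 fold change was -0.00 (standard error 0.32, edgeR adjusted p = 1.00).

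**Figure D2:**
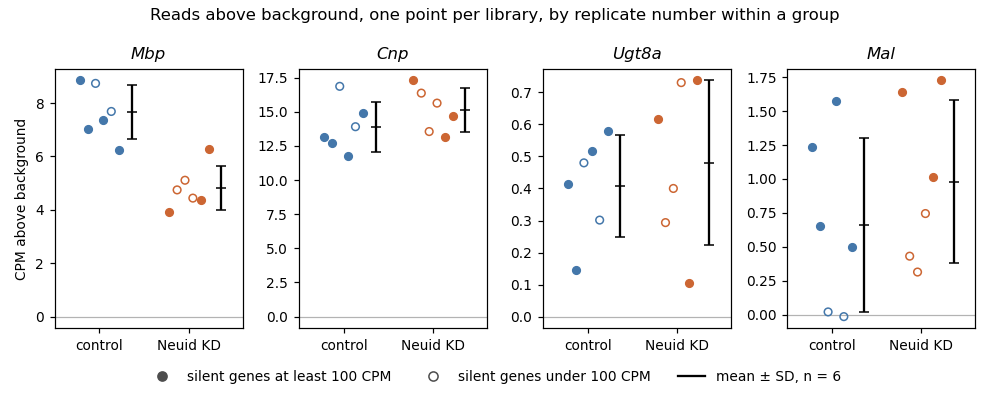
CPM above the expected background in each library for *Mbp*, *Cnp*, *Ugt8a* and *Mal*, with the libraries of a group in the order of their replicate numbers and the mean ± SD of 6 libraries beside them. Open circles are the libraries with silent genes under 100 CPM. *Mbp* was 7.65 ± 1.00 CPM in control against 4.81 ± 0.820 CPM in *Neuid* KD, and the 2 open control circles of *Mal* lie at 0.

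Per kb of exon, the order of the levels in control was *Cnp* (3.87 ± 0.461 CPM per kb), *Mbp* (0.958 ± 0.132), *Mal* (0.293 ± 0.276), *Mobp* (0.230 ± 0.198), *Mag* (0.148 ± 0.141), *Ugt8a* (0.144 ± 0.0583), *Cldn11* (0.0908 ± 0.114), *Opalin* (0.0794 ± 0.0765) and *Mog* (0.0725 ± 0.117; SD, n = 6 for each). *Cnp* and *Mbp* did not overlap with each other, nor *Mbp* with *Mal*, and from *Mal* down each gene overlapped with the next. In *Neuid* KD *Cnp* (4.19 ± 0.461 CPM per kb) again stood clear of *Mbp* (0.607 ± 0.0960), but *Mbp* now overlapped with *Mal* (0.392 ± 0.251). The background itself reached 0.113 CPM per kb in control replicate 1. Taking off the expected background removes the same amount per kb from every gene of a library, so it cannot change the order of the means. The control means then ran from *Mal* (0.238 CPM per kb) to *Mog* (0.0181) below *Mbp*. In the control libraries of low background the order below *Mbp* was different. In control replicates 3 and 5 *Ugt8a* was at 0.110 and 0.0714 CPM per kb, above *Mal* (0.0120 and 0), *Mobp* (0.00487 and 0.00675) and *Mag* (0 and 0).

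The genes whose pattern over the 12 libraries was most like that of *Mbp*, among 15205 tested genes whose mean reached 1 CPM, were *Pla2g4e*, *Vim* and *Rtl9*. Their mean absolute difference from *Mbp* in centred log2 CPM was 0.13, 0.14 and 0.14. Centring kept the difference between the groups, so genes picked this way share the fall of *Mbp* by choice. Their fold changes and p-values are therefore not separate evidence. *Pla2g4e* encodes a phospholipase, and its log2 fold change was -0.89 (edgeR adjusted p = 7.32e-06). *Vim*, the intermediate filament protein vimentin, had -0.74 (edgeR adjusted p = 3.09e-09). *Rtl9*, a gene derived from a retrotransposon, had -0.46 (edgeR adjusted p = 0.0256), which is under the fold threshold.

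Of 27 other genes of myelin and mature oligodendrocytes, 20 were tested, 1 was called higher and 2 lower, and their median log2 fold change was -0.23 beside -0.03 over all tested genes. The median of the list lay between -0.30 and -0.08 in 7 other settings, and was -0.09 with the silent gene level as a covariate. *Trf*, which encodes the iron carrier transferrin, fell from 2.40 ± 0.780 to 0.795 ± 0.391 CPM (SD, n = 6 each, log2 fold change -1.62, edgeR adjusted p = 0.00452) with no overlap between the groups. Chosen after their values were seen, the other called genes were *Plekhb1*, a membrane-associated protein (-0.57, edgeR adjusted p = 0.0199), and *Car2*, a carbonic anhydrase (0.65, edgeR adjusted p = 6.13e-05). Within the 7 libraries of high background 0 genes of this list were called lower and within the 5 of low background *Trf* alone. The most abundant genes of the list are shared with neurons. The axonal adhesion gene *Cntn2* was at 280 ± 20.6 and 269 ± 33.0 CPM, and *Qdpr*, which regenerates tetrahydrobiopterin, at 37.8 ± 1.16 and 35.8 ± 3.11 CPM (SD, n = 6 each). *Aspa*, which splits N-acetylaspartate in mature oligodendrocytes, had 0 reads in control replicates 3 and 5 and 0.962 times the reads expected from background over the 12 libraries.

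Of 12 genes of committed and newly formed oligodendrocytes, 11 were tested, 2 were called higher and none lower, with none lower at an unadjusted p under 0.05 or by DESeq2. The median log2 fold change was -0.00, and between -0.05 and 0.62 in the 7 other settings. The highest was within the 5 libraries of low background, where 6 of the genes were tested. *Itpr2*, a calcium release channel, rose from 15.1 ± 2.19 to 33.9 ± 1.75 CPM (SD, n = 6 each, log2 fold change 1.17, edgeR adjusted p = 1.79e-08). The other called gene, named after its values were seen, was *Tcf7l2*, a transcription factor of Wnt signalling (0.86, edgeR adjusted p = 3.81e-05). *Fyn* and *Sirt2*, a kinase and a deacetylase that neurons also express, were the most abundant at 215 ± 15.4 and 37.7 ± 2.49 CPM in control (SD, n = 6 each). They had log2 fold changes of 0.31 and 0.19 (edgeR adjusted p = 0.00137 and 0.0389), under the fold threshold. *Gpr17*, a receptor of the stage between precursor and myelinating cell, was at 1.04 ± 0.930 and 0.630 ± 0.694 CPM (SD, n = 6 each), with 1 read in control replicates 3 and 5 together. Its log2 fold change was -0.77 (edgeR adjusted p = 0.791). *Enpp6* (-0.78), *Lims2* (-0.57) and *Bcas1* (-0.36), named after their values were seen, were not called either (edgeR adjusted p = 0.707, 0.853 and 0.676). Of the 11 tested genes, 5 had a log2 fold change above 0.

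All 12 oligodendrocyte precursor genes were tested, 5 were called higher and none lower, with none lower at an unadjusted p under 0.05 or by DESeq2, and their median log2 fold change was 0.37 (0.31 to 0.47 in the 7 other settings). The summed level was 828 ± 73.3 CPM in control against 1740 ± 97.9 CPM in *Neuid* KD (SD, n = 6 each), of which *Ptprz1* held 59.3%. *Olig2*, a transcription factor of the lineage, rose from 10.5 ± 1.33 to 33.6 ± 1.93 CPM (log2 fold change 1.67, edgeR adjusted p = 8.82e-11). *Ptprz1*, a receptor phosphatase also found in astrocytes, had 1.36 and *Cspg5*, a proteoglycan, 0.50 (edgeR adjusted p = 6.73e-10 and 9.42e-06). The other called genes, named after their values were seen, were *Olig1* (1.47) and *Lhfpl3* (0.54), whose edgeR adjusted p were 1.29e-10 and 0.0499. *Lhfpl3* and *Cspg5* were not called in 4 and 5 of the 7 settings compared for the lists. *C1ql1*, a secreted protein that marks precursors, was at 0.636 ± 0.125 and 0.621 ± 0.298 CPM (SD, n = 6 each).

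**Figure D3:**
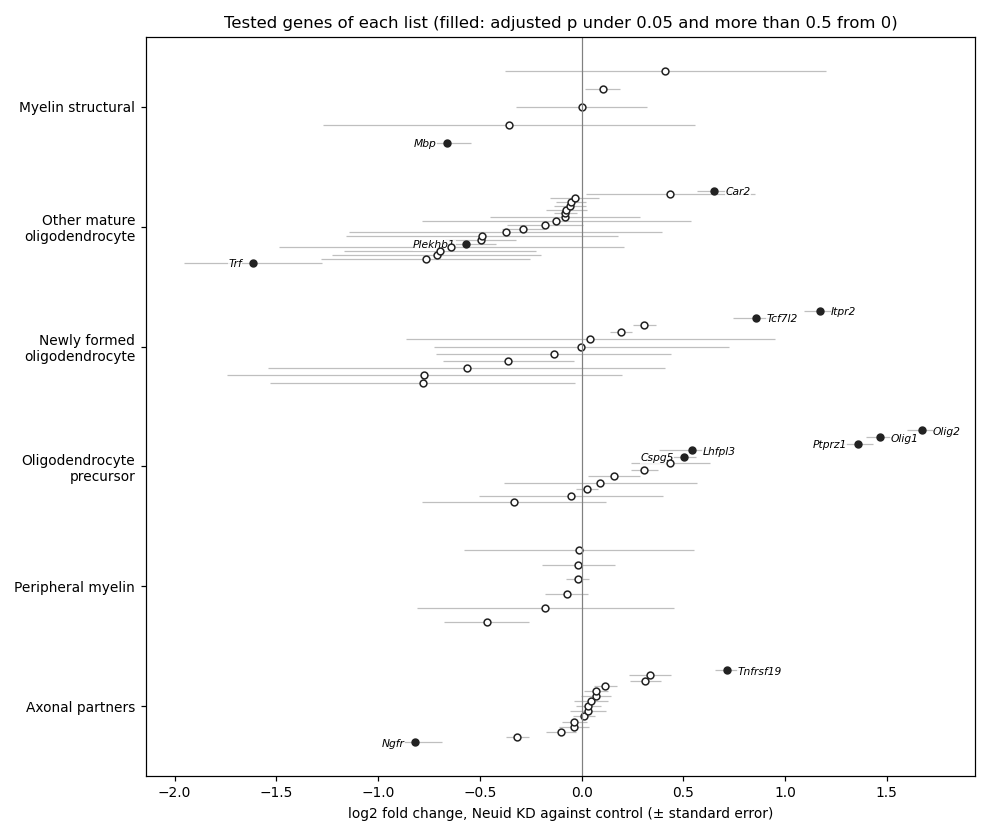
Log2 fold change (*Neuid* KD against control) with its standard error for every tested gene of the 9 myelin genes and of 5 further lists, 1 point per gene. Filled, named points are called genes, as 1 of the 5 tested myelin genes and 5 of the 12 precursor genes do.

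Peripheral myelin, which Schwann cells make, was represented by 8 genes. Of the 6 tested none was called by edgeR or DESeq2 in either direction, 0 were higher and 1 was lower at an unadjusted p under 0.05, and the median log2 fold change was -0.05 (-0.16 to -0.01 in the 7 other settings). *Drp2*, a dystrophin-related protein, was the most abundant at 45.1 ± 3.90 and 44.5 ± 2.27 CPM, followed by *Pmp22* at 7.79 ± 1.17 and 7.46 ± 0.780 CPM (SD, n = 6 each). *Pmp2*, the fatty acid binding protein of peripheral myelin, had 0 reads in all 12 libraries.

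On the axonal side, a list of 16 genes covered partners of myelin at the node of Ranvier, the inhibitor Nogo and receptors for myelin inhibitors of growth. The list as a whole was abundant in these cultures, though *Pirb* was not. Its sum over the 16 genes was 4683 ± 291 CPM in control against 4738 ± 475 CPM in *Neuid* KD (SD, n = 6 each). Of the 15 tested, 1 was called higher and 1 lower, and the median log2 fold change was 0.03 (-0.06 to 0.07 in the 7 other settings). *Ngfr*, the low-affinity neurotrophin receptor, fell from 15.0 ± 3.12 to 8.56 ± 1.31 CPM (SD, n = 6 each, log2 fold change -0.82, edgeR adjusted p = 0.000405). *Tnfrsf19*, also named after its values were seen and a relative that can stand in for it in the receptor complex for inhibitors, rose from 82.6 ± 5.96 to 135 ± 7.86 CPM (log2 fold change 0.71, edgeR adjusted p = 1.10e-07). *Rtn4*, which encodes the inhibitor Nogo, and *Ank3*, the ankyrin of nodes and axon initial segments, were the most abundant, with log2 fold changes of -0.04 and 0.04 (edgeR adjusted p = 0.856 and 0.868). *Pirb*, a receptor for inhibitors known from immune cells, had 1.76 times the reads expected from background.

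Markers of astrocytes moved with the gapmer in the same libraries. Of 10, 9 were tested and 8 were called higher, with a median log2 fold change of 1.31 and a sum of 1895 ± 153 CPM in control against 3422 ± 236 CPM in *Neuid* KD (SD, n = 6 each). The glutamate transporters *Slc1a2* and *Slc1a3* were the most abundant, and *Slc1a2* held 56.8% of the sum. *S100b*, a calcium-binding protein, rose from 1.76 ± 0.547 to 11.0 ± 1.23 CPM (SD, n = 6 each, log2 fold change 2.64, edgeR adjusted p = 3.10e-09). *Gjb6*, a connexin of mature astrocytes, was near 0 at 0.0894 ± 0.102 and 0.401 ± 0.313 CPM (SD, n = 6 each). The part of a changed mix of cells in the fall of *Mbp* was not tested.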

How the data were processed

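RNA was measured in 12 libraries made with a stranded total RNA kit. Per the methods of the study and the labels, the authors converted base calls with bcl2fastq, aligned reads with STAR to mm10 (GRCm38) and deposited raw read counts per gene, made with featureCounts. Here the counts were scaled with TMM in edgeR 4.0.16 (R 4.3.3), genes with low counts were removed with filterByExpr, and a quasi-likelihood test compared the groups with Benjamini-Hochberg adjustment over all tested genes. DESeq2 1.42.0 was an alternative. Steps were tested on simulated data. Exon lengths and positions came from GENCODE release 21 of the mouse annotation. Exact permutation tests compared levels above background. The closing section gives normalization, filter, covariate, fold threshold, library and pairing alternatives. No 2 libraries were duplicates (chi-square per degree of freedom at least 3.23 over 30 pairs within groups). Genes named were the 9 members, *Neuid*, the 3 genes most like a called member and at most 4 per marker list: the 2 most abundant, the called gene with the largest change and a defining marker near 0. Other called genes of the lists, except those of astrocytes, were named in addition, after their values were seen. So were some genes called only in other settings and some uncalled genes of the precursor and newly formed oligodendrocyte lists. The members and the 11 lists were chosen with earlier results of these data known. A result on 1 further gene is not reported.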

Additional observations from a re-analysis of the deposited data

Results flagged for a closer look

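In 48 groups of 6 libraries, 7 had a highest or lowest library far from the other 5 by Dixon's ratio of gap to range, where chance gives about 1 in 20 groups. For the myelin genes, *Neuid* KD replicate 6 had the highest *Mbp* level, 6.75 CPM, with the next library at 5.15 CPM. *Mog* was highest in replicate 1 of both groups, at 0.516 CPM in control against 0.758 CPM in *Neuid* KD, from 10 and 9 reads. The other 4 fell on *Neuid* KD replicate 1, the library with the fewest reads. Its summed level was the lowest of its group for the other myelin and mature oligodendrocyte genes (343 CPM, the next at 404), for the axonal partners (3790 CPM, the next at 4793) and for neuron markers (6061 CPM, the next at 6801). For microglia markers its sum was the highest, 10.8 CPM, with the next at 7.59 CPM. The causes were not tested.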

How the results depend on the processing

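*Mbp* kept its call in 21 of 22 alternatives (log2 fold change -0.54 in the 7 libraries of high background; -0.78 to -0.60 with each library left out). *Cnp* turned to -0.0512 in the 5 libraries of low background. *Mobp* turned to 0.22 with background as a covariate, 0.29 with a factor of unwanted variation and 0.23 with the covariate and the replicate block, a setting chosen after seeing the data. *Ugt8a*, at 0, turned to 0.0186 without the filter, 0.0779 with the covariate, 0.0902 with the factor, 0.00821 with covariate and block, 0.0333 in the 7 and 0.28 in the 5 libraries, and lay between -0.23 and 0.15 with each library left out. *Mobp* lay between -1.02 and -0.04 and *Mal* between 0.12 and 0.84 with each library left out, and *Mal* was at 0.94 with the replicate block. *Mal* passed the threshold with the covariate (1.10), the factor (1.16) and covariate and block (1.31). These fits include control replicates 3 and 5, which had 1 and 0 *Mal* reads. *Mal* also passed in the 5 libraries (4.44), but it entered that test only through its *Neuid* KD reads, so no conclusion is drawn there. The fits with covariate or factor are not separate from it. RLE and upper quartile scaling gave 450 and 389 higher and 174 and 218 lower genes. Genes called higher moved from 477 to 797 above a fold change of 0.3 and to 1235 with no fold threshold. Genes called lower moved from 155 to 328 and 473 with these thresholds, 300 with the covariate, 292 with the factor and 289 with covariate and block. With each library left out they numbered 414 to 475 and 123 to 269, the last without *Neuid* KD replicate 1. The difference in CPM above background for *Mbp* had an exact permutation p above 0.05 within the 7 and the 5 libraries and with pairing. The same difference turned sign in the 5 libraries for *Cnp* (-0.200), *Mobp* (0.207) and *Mag* (0.0739). With each library left out it lay between -0.574 and 0.0237 for *Mobp*, -0.0312 and 0.124 for *Mog*, and -0.000543 and 0.108 for *Opalin*. The causes were not tested. Libraries of the same number deviated together for replicates 1 and 3 (r 0.774 and 0.751, each the best match) and not for the other 4 (r from -0.637 to 0.00370), and with background removed r lay between -0.211 and 0.0888 for all 6. The replicate block gave 474 higher and 167 lower genes, *Mbp* among the lower (-0.65), with *Cnp*, *Mobp*, *Mal* and *Ugt8a* uncalled. Reads were few for *Mag*, *Mog*, *Opalin* and *Cldn11*, at 110, 29, 56 and 57 over 12 libraries, and the part of depth in this was not tested.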

Other observations

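Markers of other cells of the brain were low. Fibroblast and meningeal genes (9, of which 7 were tested) summed to 47.5 ± 13.7 CPM in control against 41.0 ± 7.08 CPM in *Neuid* KD (SD, n = 6 each), with a median log2 fold change of -0.68 over the tested genes. The median lay between -0.76 and 0.33 in 7 other settings, at -0.26 with the silent gene level as a covariate and above 0 only within the 5 libraries of low background. *Dcn*, a small proteoglycan, held 48.1% of the sum, followed by the transcription factor *Foxc1* in the mean of both groups, and the growth factor *Igf2* had 0.454 times the reads expected from background. With the silent gene level as a covariate, edgeR called *Pdgfrb* higher and *Col1a1* and *Col3a1* lower, genes chosen after their values were seen. Within the 7 libraries of high background *Col3a1* was called lower, and within the 5 of low background *Pdgfrb* higher. The fit with the silent gene level as a covariate also called *Pecam1* of the endothelial markers lower, and within the 7 libraries of high background *Ttr* of the choroid plexus markers was called higher.

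Microglia markers (7, of which 3 were tested) summed to 9.25 ± 2.17 and 7.40 ± 1.80 CPM, led by *Aif1* and *Csf1r*, and *Itgam* had 0.873 times the expected reads. Endothelial markers (6, of which 4 were tested) summed to 7.10 ± 5.58 and 4.65 ± 4.57 CPM, led by *Pecam1* and *Flt1*, and *Ly6c1* had 0.747 times the expected reads. Choroid plexus and ependymal markers (5, of which 4 were tested) summed to 8.05 ± 2.90 and 8.07 ± 3.41 CPM (SD, n = 6 each), led by *Ttr* and *Foxj1*, and *Kcnj13* had 1.20 times the expected reads. The median log2 fold changes were -0.31, -0.66 and -0.44. In the 7 other settings they lay between -0.37 and -0.12, -0.72 and 0.02, and -0.49 and 0.15, so that the direction turned for the endothelial and choroid plexus lists. Each turn rests on 2 tested genes, within the 5 libraries of low background for the endothelial list and in DESeq2 for the choroid plexus list. Over all 12 libraries with group alone in the model, in all 4 lists 0 genes were called in either direction by edgeR, 0 by DESeq2 and 0 had an unadjusted p under 0.05 in edgeR.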
